A study of Mus musculus with 6 samples.

Results

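Arteries and veins of the lung are lined by endothelial cells that carry different transcripts, and 9 of these transcripts were followed here in isolated lung endothelial cells (iLECs) at postnatal day 7 (P7). The genes were chosen by name as markers of arterial endothelium (*Gja4*, *Gja5*, *Bmx*, *Sox17* and *Mgp*) and of venous endothelium (*Nr2f2*, *Slc6a2*, *Prss23* and *Amigo2*). Earlier results of these data were known when they were chosen. All 9 were among the 24972 gene symbols of the deposited table, and all 9 were among the 14456 genes that passed the filter on low values and were tested. The RNA-Seq compared 3 control samples, labeled PRR (Atp6ap2)fl/Y, with 3 samples that also carried Cdh5-CreERT2 and are called iECKO here. In that transgene the *Cdh5* promoter, active in endothelium, expresses a Cre that tamoxifen switches on. Pups of both genotypes received 100 μg of tamoxifen on each day from P1 to P3, so the floxed allele and the drug were shared, and the Cre transgene was present in iECKO samples only. The strain is given as C57BL/6 in the labels and as a mixed CD1 and C57BL/6 background in the study's methods. iLECs were the cells that bound magnetic beads carrying an antibody to CD31 after digestion of the lung. Neither the labels nor the methods say whether a sample was 1 animal.

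As background, arterial endothelium is set up by Notch signaling and by SOX factors, which maintain genes such as the connexins of arterial gap junctions and the ligand ephrin B2. Venous endothelium is marked by the orphan nuclear receptor COUP-TFII, the product of *Nr2f2*, which represses arterial genes. Most endothelial cells of the lung are capillary cells, so transcripts of large vessels come from a minority of the cells of a preparation.

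*Atp6ap2*, the targeted gene, was measured at 7490, 5815 and 5681 normalized counts in the control libraries (replicates 1 to 3) and at 4220, 2336 and 1982 in the iECKO libraries. It fell (log2 fold change -1.22, SE 0.26, limma adjusted *P* = 0.0306), and replicate 1 kept the most transcript among the iECKO libraries. With 1 library left out, the call held only without iECKO replicate 1 (adjusted *P* = 0.00604) and was lost in the other 5 fits (0.0628 to 0.103). Normalized counts are the deposited values, which had already been scaled between libraries, and their totals were between 26243878 and 28725799. The step between the lowest values placed the relative depth of the control libraries between 1.00 and 1.04 and that of the iECKO libraries between 1.26 and 1.56. The labels give an fl/Y genotype for every sample, but *Xist*, a transcript of the inactive X chromosome, had more than 1000 normalized counts in 4 libraries, 2 of each genotype. The pan-endothelial markers were present throughout, with *Pecam1* (log2 fold change 0.12, SE 0.11) and *Cdh5* (0.07, SE 0.17) not past the threshold.

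Of the 9 genes, 4 passed an adjusted *P* value of 0.05 in limma, a linear model fitted across all genes tested, and 8.25% of all tested genes did so. *Gja4*, *Gja5* and *Nr2f2* fell in iECKO iLECs, where 4.97% of all tested genes fell, and *Prss23* rose, where 3.28% rose. The libraries of the genotypes did not overlap for 6 of the 9 genes, which was so for 29.8% of all tested genes. Of the 5 arterial genes 2 fell and 0 rose, and of the 4 venous genes 1 fell and 1 rose; the difference between the groups was not tested. The exact permutation test of a single gene cannot give a two-sided *P* value below 0.1 with 3 samples against 3, and each of the 6 genes without overlap reached that value.

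**Figure D1:**
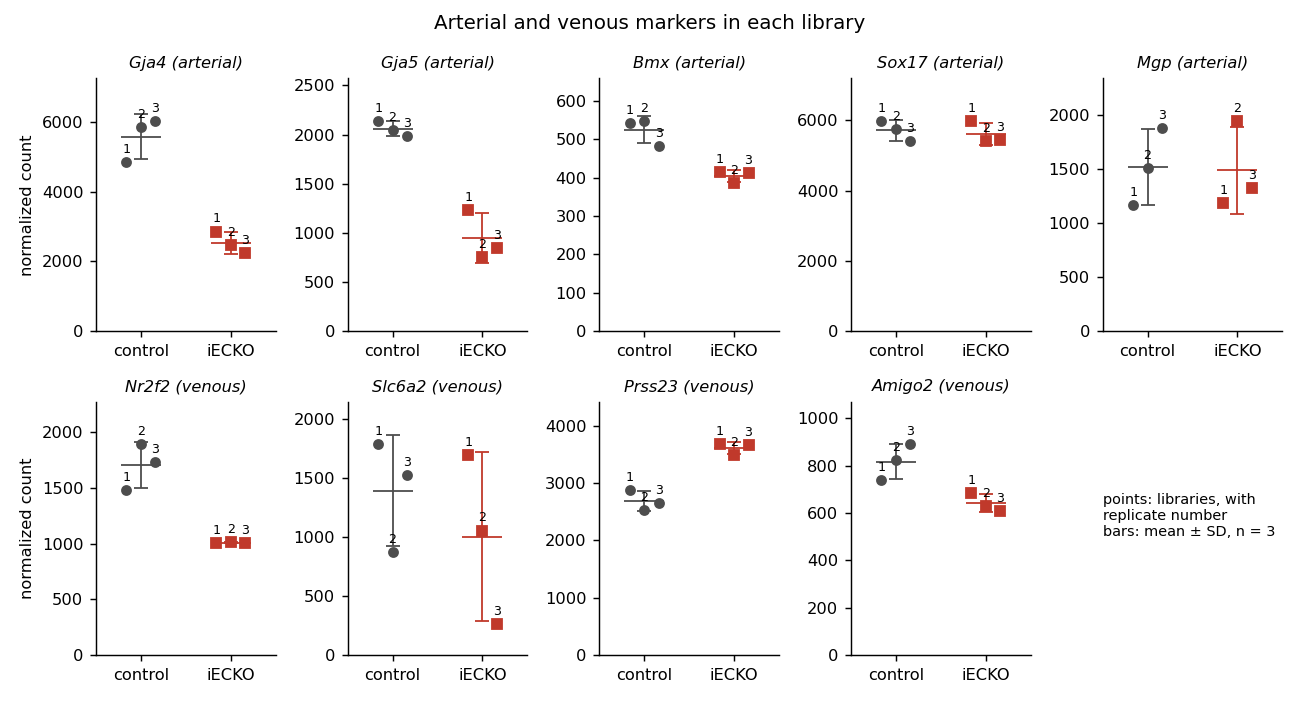
Normalized count of each of the 9 markers (y axis, starting at 0) in the 3 control libraries (gray circles) and the 3 iECKO libraries (red squares), numbered by replicate, with mean and SD. *Gja4*, *Gja5*, *Bmx*, *Nr2f2* and *Amigo2* lay lower in every iECKO library than in any control library, *Prss23* lay higher, and *Sox17*, *Mgp* and *Slc6a2* overlapped.

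*Gja4* encodes connexin 37 and *Gja5* encodes connexin 40, the channel proteins that join arterial endothelial cells to one another through gap junctions. They lie on chromosome 4 of GRCm38 from 127311421 to 127314039 and on chromosome 3 from 96904693 to 97077416. The 250 bases before the RefSeq start of each are shown because these were the arterial genes that fell, and that of *Bmx* is shown beside them as an arterial gene that did not pass. They are printed 5′ to 3′ on the strand of the gene, from GRCm38.p6, with the only motif match in capitals.
Gja4, chr4:127314040-127314289, minus strand: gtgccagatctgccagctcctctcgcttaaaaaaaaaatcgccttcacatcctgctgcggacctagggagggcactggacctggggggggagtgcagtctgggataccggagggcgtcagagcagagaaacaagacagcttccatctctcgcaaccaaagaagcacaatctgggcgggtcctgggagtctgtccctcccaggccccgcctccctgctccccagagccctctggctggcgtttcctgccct
Gja5, chr3:97032152-97032401, plus strand: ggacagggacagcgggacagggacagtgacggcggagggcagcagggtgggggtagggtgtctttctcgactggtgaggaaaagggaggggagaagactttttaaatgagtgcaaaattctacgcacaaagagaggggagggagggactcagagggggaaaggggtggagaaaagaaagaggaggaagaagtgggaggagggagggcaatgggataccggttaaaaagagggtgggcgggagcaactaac
Bmx, chrX:164258194-164258443, minus strand: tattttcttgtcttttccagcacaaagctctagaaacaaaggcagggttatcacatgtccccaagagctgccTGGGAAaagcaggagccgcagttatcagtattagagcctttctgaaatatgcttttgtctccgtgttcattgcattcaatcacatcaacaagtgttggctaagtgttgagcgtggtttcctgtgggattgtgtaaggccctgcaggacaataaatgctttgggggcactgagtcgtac
The motifs were searched on both strands: AACAAT, the core read by SOX factors; AGGTCA, the half-site of nuclear receptors; and TGGGAA, read by the Notch partner RBPJ. The windows of *Gja4* and *Gja5* held none of these, and that of *Bmx* held TGGGAA 178 bases before the start. The RefSeq start of *Gja5*, at 97032402, lies inside the gene span given above, and the bases before 96904693 were not searched. Among 32851 RefSeq promoter windows of this length, 9.42% held AACAAT, 14.0% held AGGTCA and 21.6% held TGGGAA. RefSeq entries were found for 6 of the 9 genes, and *Sox17*, *Mgp* and *Slc6a2* were without one. The windows of *Nr2f2* and *Amigo2* also held no match. *Prss23* had 7 windows, and the only matches, to AGGTCA and TGGGAA, were in a pair of them that overlap each other.

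For *Gja4*, control replicates 1 to 3 held 4847, 5837 and 6035 normalized counts, and iECKO replicates 1 to 3 held 2856, 2478 and 2241. Every iECKO library was below every control library by a wide margin. The mean was 5573 ± 637 (SD, n = 3) in control and 2525 ± 310 (SD, n = 3) in iECKO iLECs, which is 45.3% of the control level. Its log2 fold change was -1.14 (SE 0.12, limma adjusted *P* = 0.00731), and it remained past the threshold in all 6 fits that left out 1 library (-1.24 to -1.06). In such bulk samples, fewer cells of a type and less transcript per cell cannot be told apart. Fibroblast and mural marker lists were lower in the same iECKO libraries as *Gja4* and *Gja5*, with median log2 fold changes of -1.50 and -1.53, and their part in these differences was not tested.

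*Gja5* behaved alike, at 2142, 2050 and 1986 in the control libraries and 1231, 755 and 851 in the iECKO libraries. The 3 control values were close together, and among the iECKO libraries the highest was replicate 1, which also kept the most *Atp6ap2*. Replicate 3 had more *Gja5* than replicate 2 but less *Atp6ap2*. Among the iECKO libraries, replicate 1 also had the highest fibroblast and mural marker sums (24002 and 7750 normalized counts). A relation of *Gja5* to either was not tested. The *Gja5* mean fell from 2059 ± 79 (SD, n = 3) to 945 ± 252 (SD, n = 3), 45.9% of the control level. Its log2 fold change was -1.15 (SE 0.17, limma adjusted *P* = 0.0113) and was between -1.36 and -1.01 with each library left out, past the threshold each time. Without iECKO replicate 1, the log2 fold changes of *Gja4* and *Gja5* were -1.23 and -1.36. The exons of *Gja5* share 165 bases (2.87% of their length) with *Gpr89* on the other strand, which the library kit does not tell apart, and *Gpr89* was between 276 and 327 in all libraries.

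*Bmx*, on chromosome X from 164192842 to 164258193, encodes a cytoplasmic tyrosine kinase found in arterial endothelium and endocardium. Its normalized counts were 542, 549 and 484 in control and 414, 385 and 411 in iECKO libraries. The genotypes did not overlap, but the difference was smaller than for the connexins. On the log2 scale the difference was -0.38 (SE 0.11, 95% interval -0.64 to -0.12, limma adjusted *P* = 0.0848), which did not pass the threshold.

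*Sox17*, on chromosome 1 from 4490931 to 4497354, encodes a transcription factor required for arterial identity. It had 5993, 5756 and 5401 normalized counts in control and 5971, 5421 and 5449 in iECKO libraries. These ranges were nearly the same. The log2 fold change was -0.03 (SE 0.08, limma adjusted *P* = 0.88), and its 95% interval in fold was 0.863 to 1.12. This interval does not reach the fall of *Gja4*, whose own interval was 0.374 to 0.549 in fold. The sign of the *Sox17* difference changed with the scaling. Of its exon bases, 16.8% are shared with the antisense gene *Gm37587*, which has no row in the table.

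*Mgp*, on chromosome 6 from 136872435 to 136875823, encodes matrix Gla protein, an inhibitor of calcification that arterial endothelium shares with smooth muscle and fibroblasts. Its control values were 1170, 1511 and 1879 and its iECKO values 1183, 1949 and 1329. They overlapped along most of their range. The log2 fold change was -0.04 (SE 0.22, 95% interval -0.55 to 0.47, limma adjusted *P* = 0.938), so a change of the size seen in *Bmx* in either direction lay inside the interval. Its sign also depended on the scaling and on which library was left out.

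Among the venous markers, *Nr2f2* on chromosome 7 from 70351944 to 70366735 fell. It had 1482, 1892 and 1734 normalized counts in the control libraries and 1009, 1014 and 1003 in the iECKO libraries. The iECKO values were almost equal to one another and all below the lowest control value. The mean was 1703 ± 207 (SD, n = 3) in control and 1008 ± 5.65 (SD, n = 3) in iECKO iLECs, or 59.2% of the control level. The log2 fold change of -0.75 (SE 0.10, limma adjusted *P* = 0.0104) was between -0.84 and -0.67 with each library left out and passed each time. Fibroblasts and mural cells also express *Nr2f2*, and their marker lists were lower in the same libraries. An antisense gene, *B130024G19Rik*, shares 7.46% of its exon bases and had at most 27.4 normalized counts.

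*Prss23*, on chromosome 7 from 89507783 to 89527187, encodes a secreted serine protease. It was the only one of the 9 genes that rose, from 2878, 2522 and 2651 normalized counts in control to 3676, 3493 and 3661 in iECKO libraries. The lowest iECKO value was above the highest control value. The mean went from 2684 ± 181 (SD, n = 3) to 3610 ± 102 (SD, n = 3), or 135% of the control level, with a log2 fold change of 0.43 (SE 0.08, limma adjusted *P* = 0.0212). The call was lost without control replicate 2 (adjusted *P* = 0.0513) or 3 (0.0699) and without iECKO replicate 2 (0.0732) or 3 (0.0877), with log2 fold changes between 0.39 and 0.45. It was also lost when libraries were scaled to the pan-endothelial markers (0.33, adjusted *P* = 0.0886). The antisense gene *Prss23os*, which has no row in the table, shares 22.9% of the exon bases of *Prss23*.

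*Amigo2*, on chromosome 15 from 97244125 to 97247287, encodes a cell adhesion protein with leucine-rich repeats. It had 739, 822 and 890 normalized counts in control and 683, 631 and 607 in iECKO libraries. The groups were separate, with a small gap between control replicate 1 and iECKO replicate 1. On the log2 scale this difference was -0.35 (SE 0.11, 95% interval -0.60 to -0.10, limma adjusted *P* = 0.0968), which did not pass.

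*Slc6a2*, on chromosome 8 from 92960079 to 93001667, encodes the noradrenaline transporter, which in the lung marks venous endothelium. Its values were the most spread of the 9 genes, at 1785, 870 and 1525 in control and 1693, 1054 and 260 in iECKO libraries. The lowest value, in iECKO replicate 3, stood apart, and the other iECKO libraries lay inside the control range. The log2 fold change of -0.78 had an SE of 0.62 (95% interval -2.21 to 0.65, limma adjusted *P* = 0.50), and without iECKO replicate 3 it was 0.0035. That library also had the highest summed level of 10 leukocyte markers, 13986 normalized counts against 4890 to 11946 in the other 5 libraries. Among those 5, *Slc6a2* was instead higher where the leukocyte sum was higher. The sums were 11946, 10657 and 10256 in iECKO replicate 1 and control replicates 1 and 3. They were 4890 and 5955 in iECKO replicate 2 and control replicate 2, where *Slc6a2* was lower. A relation of leukocytes to *Slc6a2* was not tested.

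**Figure D2:**
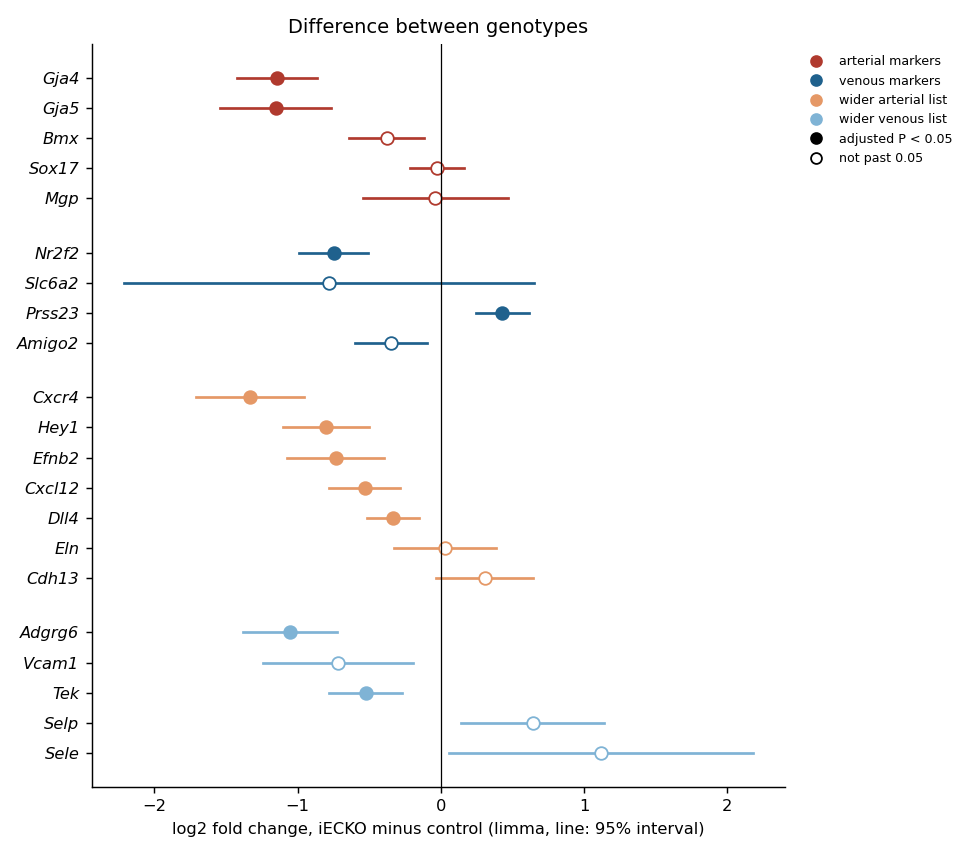
Log2 fold change (x axis, iECKO minus control) with its 95% interval from limma for the 9 markers and for the genes named from the wider arterial and venous lists; filled points have an adjusted *P* value below 0.05. *Gja4*, *Gja5*, *Cxcr4* and *Adgrg6* lie left of -1, the intervals of *Sox17* and *Mgp* span 0, and *Prss23* is the only filled point right of 0.

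Scaled to gene length, *Gja4* was the most abundant of the 9 transcripts in control iLECs, at 3307 ± 378 (SD, n = 3) normalized counts per kilobase of merged exons. *Mgp* (1280 ± 299) and *Sox17* (1198 ± 62) came next and overlapped each other, followed by *Prss23* (712 ± 48) and *Gja5* (358 ± 14), each apart from its neighbors. *Amigo2* (258 ± 24), *Slc6a2* (221 ± 75), *Nr2f2* (197 ± 24) and *Bmx* (170 ± 12) had the lowest levels per kilobase, and each of these overlapped its neighbor in this order. In iECKO iLECs *Gja4* was still the highest per kilobase on average, at 1498 ± 184, but its range of 1330 to 1695 now overlapped the 997 to 1642 of *Mgp*. By mean level, *Gja5* went from the fifth to the sixth place and *Nr2f2* from the eighth to the ninth. The iECKO range of *Gja5* (131 to 214) overlapped that of *Amigo2* (192 to 216). That of *Nr2f2* (116 to 118) lay below that of *Bmx* (125 to 134). The iECKO range of *Slc6a2* (41 to 269) overlapped all of these.

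**Figure D3:**
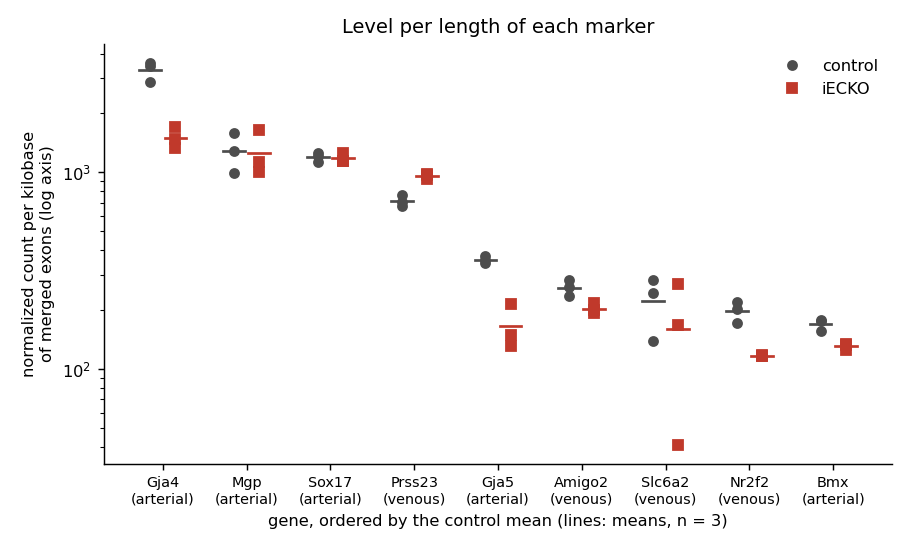
Normalized count per kilobase of merged exons (y axis, log scale) of the 9 markers, ordered by the control mean, in control (gray circles) and iECKO (red squares) libraries, with lines at the means. *Gja4* is highest in control at 3307 and falls to 1498, into the range of *Mgp*, while the *Sox17* means are 1198 and 1176.

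The balance between the groups was described as the mean log2 level of the 5 arterial genes minus that of the 4 venous genes in each library. It was 0.44, 0.72 and 0.52 in control replicates 1, 2 and 3 and 0.15, 0.28 and 0.70 in iECKO replicates 1, 2 and 3. The ranges overlapped, since the low *Slc6a2* value raised the balance of iECKO replicate 3. Over the arterial genes the median of the log2 fold changes was -0.38 and over the venous genes -0.55, against 0.00 over all genes tested. The venous median lay between the values of *Nr2f2* (-0.75) and *Amigo2* (-0.35). Without iECKO replicate 3 the log2 fold change of *Slc6a2* went from -0.78 to 0.0035. The venous median was then -0.15 and the arterial median -0.39.

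A wider list of 26 other arterial genes, all tested, had 5 genes that fell and 0 that rose, where 4.97% of all tested genes fell and 3.28% rose. An unadjusted *P* value below 0.05 was reached by 12 of the 26, and by 3453 of all 14456 tested genes (23.9%). The median log2 fold change of the list was -0.28, and 21 of its genes had a negative sign. This was not particular to arterial genes: a list of 7 general capillary markers had a median of -0.32, with 6 negative signs. *Cxcr4*, the receptor for the chemokine CXCL12, fell the most, from 6022, 4032 and 4971 normalized counts in control to 2343, 1793 and 1799 in iECKO libraries. Its log2 fold change was -1.33 (SE 0.16, limma adjusted *P* = 0.00848), and it passed in all 6 fits that left out 1 library. The Notch target *Hey1* fell from 2603, 2963 and 3035 to 1828, 1782 and 1348 (log2 fold change -0.80, SE 0.13, adjusted *P* = 0.0142), a call that was lost only without control replicate 3 (0.0593). The ligand genes followed. *Efnb2*, encoding ephrin B2, had a log2 fold change of -0.73 (adjusted *P* = 0.0256), *Cxcl12* of -0.53 (0.027) and the Notch ligand gene *Dll4* of -0.33 (0.0432). With 1 library left out, *Efnb2* and *Cxcl12* passed only without iECKO replicate 1, and *Dll4* in none of the 6 fits (highest adjusted *P* = 0.0869, 0.108 and 0.167). Mural cells and fibroblasts also express *Efnb2* and *Cxcl12*. The largest positive differences of the list were those of *Cdh13* (0.31, adjusted *P* = 0.252) and *Eln* (0.03, 0.929), which did not pass.

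Of 22 other venous genes, 21 were tested, 2 fell and 0 rose, beside 4.97% and 3.28% of all tested genes. An unadjusted *P* value below 0.05 was reached by 9 of the 21, against 23.9% of all tested genes. *Ackr1*, at no more than 16.5 normalized counts, was not tested. The median log2 fold change was 0.07, with 12 genes above and 9 below 0. *Adgrg6*, an adhesion G protein–coupled receptor, fell from 13373, 11595 and 10605 normalized counts to 6761, 5689 and 4768 (log2 fold change -1.05, SE 0.14, limma adjusted *P* = 0.0103), and passed with each library left out. *Tek*, the receptor for angiopoietins, which all endothelium expresses, fell to 69.5% of its control level (log2 fold change -0.53, adjusted *P* = 0.0292), but with 1 library left out it passed only without iECKO replicate 1 (highest adjusted *P* = 0.117). *Sele* and *Selp*, which encode the selectins that venules display to leukocytes, had log2 fold changes of 1.12 (SE 0.46, adjusted *P* = 0.187) and 0.64 (SE 0.22, adjusted *P* = 0.117). *Vcam1* had -0.72 (SE 0.23, adjusted *P* = 0.0982). These 3 did not pass, and *Selp* and *Vcam1* did not overlap between genotypes, which was so for 29.8% of all tested genes. *Vcam1* passed without control replicate 3 (adjusted *P* = 0.0434).

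Markers of other cells moved in the same libraries. Of 11 tested fibroblast markers 9 fell and 0 rose, where 4.97% of all tested genes fell and 3.28% rose. The summed level of the fibroblast markers was 45347 to 77315 normalized counts in control and 18758 to 24002 in iECKO libraries. Of 12 mural and smooth muscle markers 8 fell, with sums of 14746 to 21645 and 6036 to 7750. Without control replicate 3, 4 of 9 fibroblast and 4 of 11 mural markers fell, beside 205 of 14283 genes. Without iECKO replicate 2 these were 5 of 11 and 5 of 12 (218 of 14336 genes). Without iECKO replicate 3 they were 4 of 11 and 4 of 12 (178 of 14290 genes). Without control replicate 1, control replicate 2 or iECKO replicate 1, 9, 6 and 9 fibroblast and 10, 6 and 8 mural markers fell. Beside these, 658 of 14298, 365 of 14270 and 620 of 14284 genes fell. Over the 6 fits the medians were -1.73 to -1.28 and -1.72 to -1.40. Among the markers that fell in the main fit were *Col1a1* (log2 fold change -1.62, limma adjusted *P* = 0.0106), *Pdgfra* (-1.35, 0.0153) and *Myh11* (-1.38, 0.0152). *Acta2* (-1.45, 0.0504) did not pass. None of these genes was at 0 in any library. *Col1a1* passed in all 6 fits that left out 1 library, and *Pdgfra* and *Myh11* in 3 each. The pan-endothelial list of 10 genes was between 284537 and 363173 in control and between 320602 and 354539 in iECKO libraries, with 0 lower, 1 higher and a median log2 fold change of 0.09. The higher genes of this list and of the epithelial list were *Cd34* (0.43, adjusted *P* = 0.0448) and *Scgb1a1* (1.75, 0.0408), named after their values were seen; each passed in 1 of 6 fits that left out a library. The epithelial list had sums of 23808 to 64654 and 29385 to 36558, with 0 of 11 lower and 1 higher, and *Epcam* did not pass (-0.23, adjusted *P* = 0.78). The leukocyte list had 0 of 10 past the threshold in either direction, and *Ptprc* had a log2 fold change of 0.36 (adjusted *P* = 0.65). Control replicate 1 had the lowest fibroblast and mural sums of the control libraries. Among the controls, *Gja4*, *Mgp*, *Nr2f2* and *Amigo2* were also lowest there. *Gja5*, *Sox17*, *Slc6a2* and *Prss23* were highest there, and *Bmx* lay between the other controls. *Mgp*, which these stromal cells and arterial endothelium both express, had overlapping values between genotypes. The limma interval of its log2 fold change was wide, from -0.55 to 0.47. What part stromal cells had in the *Mgp* values was not tested. The part of stromal cells in the difference of *Nr2f2* was not tested either. When libraries were scaled to the pan-endothelial markers, the log2 fold changes of *Gja4*, *Gja5* and *Nr2f2* were -1.24, -1.25 and -0.84 and passed. This scaling divides all genes of a library by the same factor. It moved the median log2 fold change over all genes from 0.00 to -0.09. It does not adjust for stromal cells. With the presence of *Xist* as a covariate all 4 calls held, at adjusted *P* values of 0.0137 for *Gja4*, 0.0151 for *Gja5*, 0.0194 for *Nr2f2* and 0.0403 for *Prss23*.

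**Figure D4:**
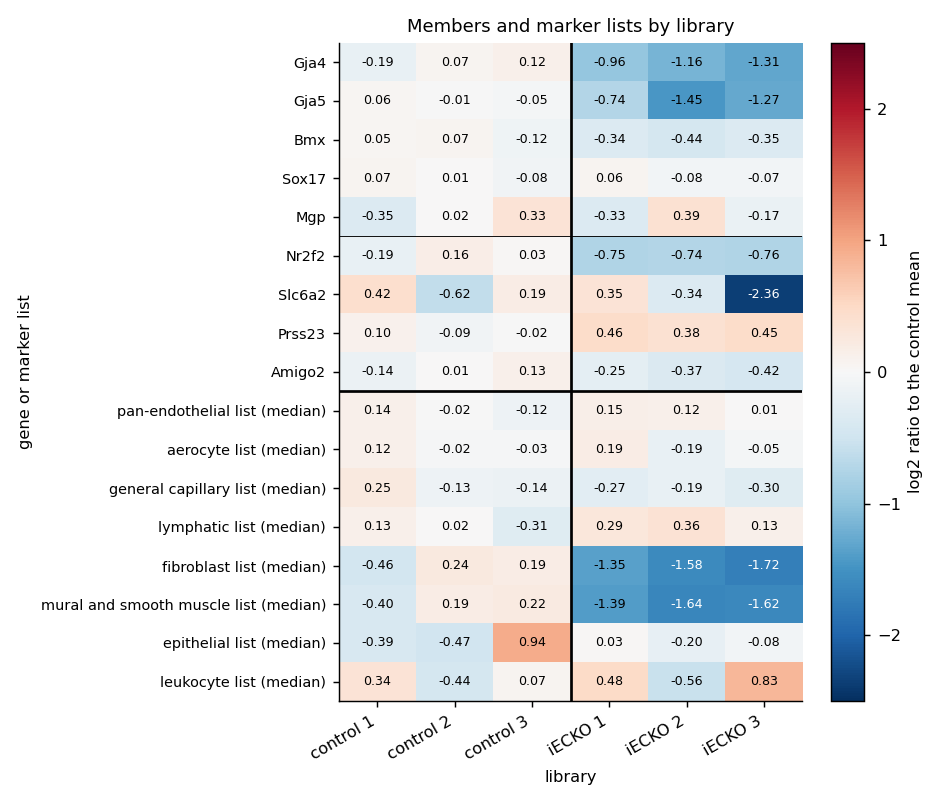
Log2 ratio of each library to the mean log2 level of the control libraries (color and printed number) for the 9 markers and, below the line, the median over 8 marker lists, with libraries as columns. The fibroblast and the mural and smooth muscle lists lie between -1.35 and -1.72 in the iECKO libraries, beside the low *Gja4*, *Gja5* and *Nr2f2*, and the pan-endothelial list lies between 0.01 and 0.15.

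The genes whose pattern over the 6 libraries was most like that of *Gja5*, among 11320 tested genes with a mean of at least 100, were *Abcc5* (Pearson's r = 0.9996), *Myl9* (0.9988) and *Hgf* (0.9985). *Abcc5* is a membrane transporter, *Myl9* is a contractile gene of smooth muscle and *Hgf* encodes hepatocyte growth factor. *Myl9* had a log2 fold change of -1.26 and *Hgf* of -1.29, similar in size to *Gja5*, while that of *Abcc5* was -0.39. For *Slc6a2* the genes were *Golga7* (0.9933), *Fam177a* (0.989) and *Lrrn3* (0.9841), none of which passed (adjusted *P* = 0.811, 0.519 and 0.394). These values rest on 6 libraries, and for *Gja5* they follow mainly the separation of the genotypes.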

How the data were processed

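RNA-Seq of iLECs from 3 control and 3 iECKO samples at P7 was analysed, with 1 library per sample. Libraries came from a TruSeq v2 kit, which does not mark strand, and the authors aligned reads to mm10 and quantified genes with BaseSpace tools. The deposited values were taken as a normalized signal, although the labels call them raw counts. This was read from the values: they are not whole numbers, and their median ratio to the geometric mean of all libraries was 1.0036 in every library. Only 68.6% to 84.0% of the low values fell within 0.05 of whole steps, so reads were not recovered, no count model was run, and no counting interval is given.

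Genes that reached 10 in 3 or more libraries entered the test. limma 3.58.1 (R 4.3.3) was run on log2(normalized count + 1), using a mean-variance trend and genotype as the only term, with Benjamini-Hochberg adjustment across every tested gene and a threshold of 0.05. Fold changes are on that scale, and 95% intervals come from the same fit. *P* values set the difference between genotypes against the spread between these samples within a genotype, with the variance of each gene moderated by that of all genes tested. The fit was tested on simulated data, with 100 genes changed by 1 and 100 by 2 on the log2 scale and no others. It called 52% and 85% of these, with 6 false calls, so a gene that did not pass may still differ. Gene models were taken from GENCODE M21 on GRCm38, the build of mm10, and 24490 symbols matched. Promoters were taken from RefSeq (GRCm38.p6).

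The members and lists were chosen with earlier results of these data known. Their counts beside the share of all tested genes are therefore only descriptive. The text names the 9 members and *Atp6ap2*, the genes of the wider lists past the threshold and the 2 largest differences of each sign, defining markers of other cells, and the 3 genes most like *Gja5* and *Slc6a2* by Pearson's r. *Vcam1* and the selectins are among those largest differences. The planned protein alignment was not run, since no protein table was used here. Alternatives were other pseudocounts, filters, scalings, variance models, covariates, thresholds and each library left out.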

Additional observations from a re-analysis of the deposited data

How the results depend on the processing

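In 21 alternative settings for each gene, *Gja4* kept its direction and its call, with log2 fold changes between -1.24 and -1.06 and adjusted *P* values between 0.00243 and 0.0424. *Nr2f2* did so except at a threshold of 0.01 (-0.75, adjusted *P* = 0.0104), and *Gja5* except at 0.01 (-1.15, 0.0113) and without the mean-variance trend (-1.15, 0.0503). *Prss23* lost its call with scaling to endothelial markers (0.33), without the trend (0.43), at 0.01 (0.43) and in 4 of 6 fits without 1 library (0.39 to 0.48 over all 6). *Bmx* (-0.38) and *Amigo2* (-0.35) passed at a threshold of 0.1, and *Amigo2* passed with array quality weights (-0.38). The sign turned for *Sox17* with library size scaling (0.014) and quantile normalization (0.00028) and without control replicate 1 (0.0084, in a range from -0.072 over the fits without 1 library). It turned for *Mgp* with library size scaling (0.0021) and array weights (0.013) and without control replicate 3 (0.13), iECKO replicate 1 (0.11) or iECKO replicate 3 (0.03), in a range from -0.25. For *Slc6a2* it turned without iECKO replicate 3 (0.0035, against -1.35 at the other end of that range). The cause was not tested.

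The number of members that fell was 1 at a threshold of 0.01 and 5 at 0.1, against 3, and was 3 in each fit without 1 library. The number that rose was 0 with endothelial scaling, without the trend and at 0.01, and 0 to 1 with 1 library left out. In the wider arterial list 8 genes fell with endothelial scaling, 9 with the replicate block, 1 without the trend and 1 at 0.01, against 5, and 1 to 6 with 1 library left out. In the wider venous list 1 gene fell without the trend and 0 at 0.01, against 2, and 1 to 3 with 1 library left out, while 1 rose with quantile normalization, 1 with the replicate block and 0 to 2 with 1 library left out. Over all genes, 1193 passed (474 higher, 719 lower), 789 with endothelial scaling (105 higher, 684 lower), 304 without the trend, 767 with the *Xist* covariate, 90 at 0.01, 1987 at 0.1, and 206 to 983 with 1 library left out. With the replicate block 1508 passed, and the 4 member calls were kept. Replicate numbers are shared by the genotypes. Deviations of same-numbered libraries correlated by 0.08 to 0.25 (mean 0.15), and those of other pairs by -0.21 to 0.10 (mean -0.07). Of the 6 libraries, 5 correlated best with their own number. The main fit took the samples as unpaired and had no replicate term, and a shared effect of replicate number was not tested. The difference in the arterial minus venous balance was -0.19, -0.44 without *Mgp* and *Nr2f2*, and -0.35 to -0.07 with 1 library left out. Per kilobase of the longest transcript, control levels were 2126 for *Mgp*, 1763 for *Sox17*, 831 for *Prss23*, 561 for *Gja5* and 403 for *Nr2f2*, which moved *Nr2f2* from the eighth to the sixth place. The number of reads behind each value is unknown, which limits what can be said of low genes.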

Other observations

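Of 6 markers of aerocytes, the large capillary cells at the sites of gas exchange, 1 fell and 1 rose. Of all tested genes, 4.97% fell and 3.28% rose. The aerocyte markers that passed were *Fibin*, with a log2 fold change of -1.21 (limma adjusted *P* = 0.0108), and *Apln*, the apelin ligand, with 0.87 (0.0284). Both were named after their values were seen. *Fibin* passed in all 6 fits that left out 1 library, and *Apln* only without iECKO replicate 1 (highest adjusted *P* = 0.0995). Of 7 general capillary markers and 7 lymphatic markers 0 passed in limma, with 3 and 2 at an unadjusted *P* value below 0.05, which 23.9% of all tested genes reached, and *Prox1*, the transcription factor that defines lymphatic endothelium, had a log2 fold change of 0.12 (adjusted *P* = 0.752). The aerocyte list shares *Kdr* with the pan-endothelial list, and the general capillary list shares *Aplnr* and *Plvap* with the wider venous list.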
